A study of Mus musculus with 6 samples.

Results

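The contractile genes of smooth muscle were followed in each of 6 libraries of mouse small intestine. They are the 10 genes Acta2, Actg2, Myh11, Myl9, Cnn1, Tagln, Smtn, Lmod1, Synpo2 and Des, chosen by gene symbol from the 54012 genes of the deposited table. All 10 passed the filter on low values and were among the 13458 genes tested between the genotypes. In both genotypes the 10 genes moved together from mouse to mouse: they were high in 1 wild-type library and in 1 library of the other genotype, and lowest in a single library. No member differed between the genotypes beyond that spread.

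Smooth muscle of the gut wall lies in the outer circular and longitudinal layers, which move the contents along, and in the thin muscle sheet under the mucosa. It contracts when calcium and calmodulin activate myosin light chain kinase, which phosphorylates the regulatory light chain so that myosin can pull on filaments of smooth muscle actin. Many of these genes are under the control of serum response factor (Srf) and its coactivators, the myocardin family, which act through a short DNA element named the CArG box.

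Total RNA of whole tissue was sequenced from 3 wild-type (WT) mice and 3 mice with the genotype label TLR4ΔIEC, all aged 8 to 12 weeks, and the series title names the question, what loss of intestinal TLR4 does to expression in the small intestine. TLR4 is the receptor for bacterial lipopolysaccharide. The labels give neither the Cre line behind the TLR4ΔIEC name nor the strain, the stretch of bowel or the layers taken, and all 6 samples carry 1 collection date. The design text counts 3 mice in each genotype, so the replicates are taken as separate mice, named below WT1 to WT3 and ΔIEC1 to ΔIEC3.

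Expression is given in TPM, an abundance of transcripts per unit of length that sums to the same total in each library. The depth behind each value is unknown, since TPM carry no read totals. Library ΔIEC2 stood apart: 12221 genes reached 1 TPM in it and 13197 to 13634 in the other libraries, and ribosomal Rn18s was at 12836 TPM there but at 3806 to 7032 TPM elsewhere. Alpha-defensin genes took 25.3% to 28.7% of all TPM in the WT libraries and 5.21% to 18.4% in the others, which leaves a larger part of the total to all other genes there. Tlr4 itself was not lower in the libraries labelled TLR4ΔIEC: it stood at 0.65, 0.57 and 0.70 TPM in WT1 to WT3, then at 1.29, 1.22 and 4.81 TPM in ΔIEC1 to ΔIEC3 (log2 fold change 0.92, SE 0.40, limma adjusted p = 0.243). Genotype is therefore used below as the label gives it.

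Both the label of the tissue and that of the gene set were set beside marker genes. The epithelial genes Epcam, Cdh1, Krt8, Krt19, Vil1 and Cdx2 summed to between 6430 and 11901 TPM. Of the muscle genes, Myh11, itself a member and the myosin heavy chain that defines smooth muscle, was present in every library, at 12.5 to 66.4 TPM. The adult skeletal muscle myosins Myh1 and Myh4 were listed at 0 in all 6 libraries. Other genes of striated muscle were present, with Acta1 at 5.14 to 84.0 TPM.

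CArG boxes were searched for in the 250 bases upstream of the RefSeq start (GRCm38.p6), on both strands, and the promoters of 7 members could be matched, those of Acta2, Cnn1, Des, Lmod1, Myl9, Smtn and Synpo2. A CArG-like box is a CArG box in which 1 base of the inner A or T run is C or G. The windows that held a box are shown because the element is the textbook switch of this gene set, 30 bases each, 5′ to 3′ on the strand of the gene, with the box in capitals.
Acta2, CArG-like, chr19:34255438-34255467, minus strand: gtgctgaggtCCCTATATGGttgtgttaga
Acta2, CArG-like, chr19:34255388-34255417, minus strand: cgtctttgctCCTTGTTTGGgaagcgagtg
Myl9, CArG box, chr2:156775293-156775322, plus strand: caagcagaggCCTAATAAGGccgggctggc
Myl9, CArG-like, chr2:156775355-156775384, plus strand: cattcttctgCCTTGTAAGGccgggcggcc

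The Acta2 boxes ended 75 and 25 bases before the RefSeq start, inside an untranslated exon that GENCODE M21 annotates for Acta2. The Myl9 boxes ended 152 and 90 bases before the start, where GENCODE M21 has no exon. No match lay in this window of the other 5. Of 32851 promoters of the same length, 1.47% held a CArG box and 7.24% a CArG-like box, or 8.59% either. A match is a description of the letters and not a measured binding site.

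The thin filaments of smooth muscle are built from the actins Acta2 and Actg2. Acta2 (ENSMUSG00000035783, chromosome 19, 34241090 to 34255590, minus strand, GRCm38) encodes smooth muscle alpha-actin, shared by vessels and gut wall. It stood at 197, 88.9 and 82.7 TPM in WT1 to WT3, then at 104, 55.5 and 157 TPM in ΔIEC1 to ΔIEC3. WT1 was highest and ΔIEC2 lowest, and the genotypes overlapped. WT averaged 123 ± 64.2 and TLR4ΔIEC 106 ± 51.0 TPM (SD, n = 3 each), for a log2 fold change, TLR4ΔIEC minus WT on log2(TPM + 1), of −0.22 (SE 0.46, limma adjusted p = 0.823).

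Actg2 (ENSMUSG00000059430, chromosome 6, 83512905 to 83536265, minus strand) encodes the gamma-actin that is typical of visceral muscle. It stood at 171, 56.8 and 48.3 TPM in WT1 to WT3, then at 76.9, 45.6 and 173 TPM in ΔIEC1 to ΔIEC3. The highest libraries, WT1 and ΔIEC3, were close to each other while belonging to different genotypes. WT averaged 92.2 ± 68.8 and TLR4ΔIEC 98.6 ± 66.6 TPM (SD, n = 3 each), with a log2 fold change of 0.12 (SE 0.61, limma adjusted p = 0.928), which was below 0 under each of 4 other scalings.

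Because the actin genes are close copies, their coding sequences were compared for stretches from which a read could not be assigned. Over 1131 coding bases aligned from the stop codon, Actg2 was identical to Acta2 at 948, or 83.8%, with a longest identical run of 29 bases. The last 60 coding bases of both, from GENCODE M21 transcripts, differ at 11 positions, in capitals here.
Acta2: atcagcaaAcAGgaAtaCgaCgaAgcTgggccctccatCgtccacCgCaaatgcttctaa
Actg2: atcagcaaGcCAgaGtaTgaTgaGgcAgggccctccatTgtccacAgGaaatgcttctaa
The striated muscle actin Acta1 was 85.4% identical to Acta2, and the cytoplasmic actins Actb and Actg1 83.0% and 81.6%, with longest identical runs of 47 and 56 bases. The sources used here do not say how reads that match several actins were divided, so the split of counts among actins is uncertain.

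The motor that pulls on these filaments is smooth muscle myosin. Myh11 (ENSMUSG00000018830, chromosome 16, 14194535 to 14291372, minus strand), its heavy chain, stood at 66.4, 29.03 and 25.6 TPM in WT1 to WT3, then at 28.8, 12.5 and 56.1 TPM in ΔIEC1 to ΔIEC3. Within the libraries labelled TLR4ΔIEC alone the level differed 4.51-fold. WT averaged 40.3 ± 22.6 and TLR4ΔIEC 32.5 ± 22.1 TPM (SD, n = 3 each), for a log2 fold change of −0.41 (SE 0.56, limma adjusted p = 0.719).

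Myl9 (ENSMUSG00000067818, chromosome 2, 156775420 to 156781658, plus strand), the regulatory light chain that is phosphorylated when muscle contracts, was the most abundant member in 4 libraries and second to Acta2 in ΔIEC1 and ΔIEC2. It stood at 212, 99.05 and 91.8 TPM in WT1 to WT3, then at 96.5, 55.2 and 219 TPM in ΔIEC1 to ΔIEC3. Again the extremes of the series, 55.2 and 219 TPM, were both in the libraries labelled TLR4ΔIEC. WT averaged 134 ± 67.6 and TLR4ΔIEC 124 ± 85.5 TPM (SD, n = 3 each), with a log2 fold change of −0.24 (SE 0.53, limma adjusted p = 0.837).

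Cnn1, Tagln and Smtn encode proteins that sit on the actin filament. Cnn1 (ENSMUSG00000001349, chromosome 9, 22099216 to 22109630, plus strand), calponin, which binds actin and slows the myosin motor, stood at 55.95, 25.5 and 20.5 TPM in WT1 to WT3, then at 27.4, 15.6 and 66.5 TPM in ΔIEC1 to ΔIEC3. Its means, 34.0 ± 19.2 and 36.5 ± 26.6 TPM (SD, n = 3 each), gave a log2 fold change of −0.01 (SE 0.56, limma adjusted p = 0.995). ΔIEC3 was highest and ΔIEC2 lowest, so that both ends of the range came from 1 genotype label.

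Tagln (ENSMUSG00000032085, chromosome 9, 45929619 to 45936058, minus strand), transgelin or SM22, an actin cross-linker and early marker of smooth muscle, stood at 156, 72.8 and 68.1 TPM in WT1 to WT3, then at 83.2, 38.3 and 147 TPM in ΔIEC1 to ΔIEC3. The log2 fold change came to −0.24 (SE 0.52, limma adjusted p = 0.833), from means of 99.05 ± 49.6 and 89.4 ± 54.5 TPM (SD, n = 3 each). It overlaps Pcsk7 and an antisense gene on the other strand, and the sources used here do not say if strand was used in assigning reads.

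Smtn (ENSMUSG00000020439, chromosome 11, 3517523 to 3540612, minus strand), smoothelin, found in contractile smooth muscle cells, varied least. It stood at 18.1, 11.8 and 9.95 TPM in WT1 to WT3, then at 10.8, 9.72 and 17.9 TPM in ΔIEC1 to ΔIEC3, a range of 1.86-fold. The order of the libraries was the same as for Acta2 at both ends, with WT1 highest and ΔIEC2 lowest. The means of 13.3 ± 4.28 and 12.8 ± 4.45 TPM (SD, n = 3 each) gave a log2 fold change of −0.06 (SE 0.29, limma adjusted p = 0.931).

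The least abundant members were Lmod1 and Synpo2. Lmod1 (ENSMUSG00000048096, chromosome 1, 135324807 to 135368065, plus strand), leiomodin, a nucleator of actin filaments, stood at 7.34, 4.09 and 3.67 TPM in WT1 to WT3, then at 2.68, 2.23 and 6.20 TPM in ΔIEC1 to ΔIEC3. WT averaged 5.03 ± 2.01 and TLR4ΔIEC 3.70 ± 2.17 TPM (SD, n = 3 each), for a log2 fold change of −0.40 (SE 0.36, limma adjusted p = 0.570), which was the smallest adjusted p of any member. ΔIEC3 lay above both WT2 and WT3, so the genotypes overlapped here as well.

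Synpo2 (ENSMUSG00000050315, chromosome 3, 123076519 to 123236149, minus strand), synaptopodin 2 or myopodin, an actin-binding protein of dense bodies, stood at 6.56, 3.40 and 3.41 TPM in WT1 to WT3, then at 2.54, 1.17 and 6.90 TPM in ΔIEC1 to ΔIEC3. That 5.90-fold range, from ΔIEC2 to ΔIEC3, was the widest of the members, and it lay wholly within 1 genotype label. WT averaged 4.46 ± 1.82 and TLR4ΔIEC 3.54 ± 2.99 TPM (SD, n = 3 each), with a log2 fold change of −0.42 (SE 0.48, limma adjusted p = 0.655).

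Des (ENSMUSG00000026208, chromosome 1, 75360329 to 75368579, plus strand) encodes desmin, the intermediate filament protein that ties the contractile units together. It stood at 65.5, 27.0 and 22.1 TPM in WT1 to WT3, then at 22.9, 18.2 and 72.3 TPM in ΔIEC1 to ΔIEC3. The means, 38.2 ± 23.8 and 37.8 ± 30.0 TPM (SD, n = 3 each), were less than 1 TPM apart, for a log2 fold change of −0.12 (SE 0.58, limma adjusted p = 0.928). An antisense gene overlaps it, and other small or non-coding gene models overlap Lmod1, Synpo2 and Smtn.

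**Figure D1:**
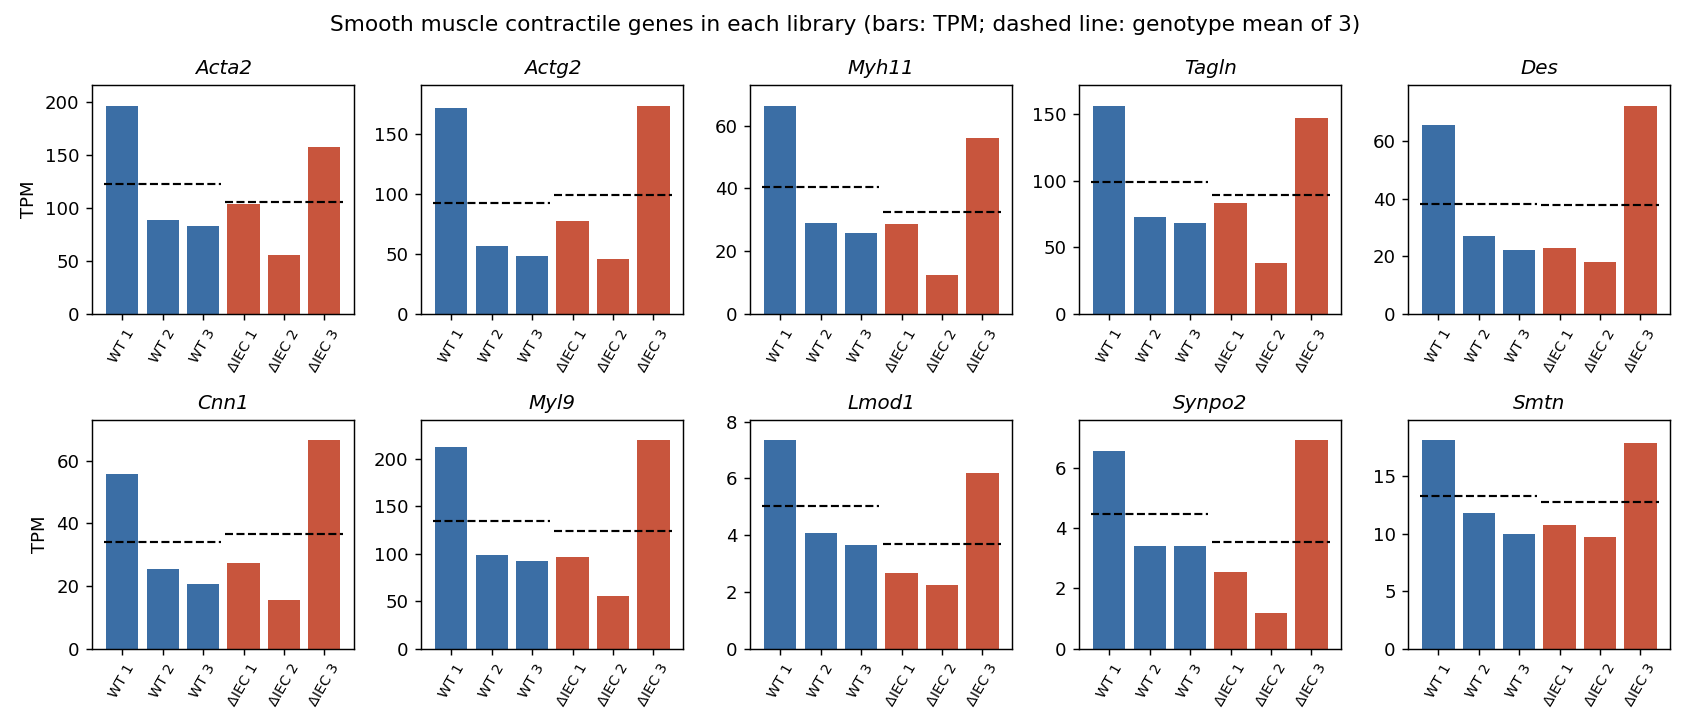
Bars give the TPM of each smooth muscle contractile gene (vertical axes, each from 0) in the 3 WT (blue) and 3 TLR4ΔIEC (red) libraries, and dashed lines the mean of each genotype. In all 10 panels WT1 and ΔIEC3 are the 2 highest bars and ΔIEC2 is the lowest.

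Between the genotypes, 0 of 10 members passed an adjusted p of 0.05 (limma, Benjamini-Hochberg over all genes tested), against 16 of 13458 genes, or 0.119%, which were 6 higher and 10 lower. The count over all genes rested on single libraries: it was 32 without WT1, 0 without WT2, 3 without WT3, 367 without ΔIEC1, 0 without ΔIEC2 and 5 without ΔIEC3, while 0 members passed in each of these fits. None of the 10 had an unadjusted p under 0.05, a level that 2847 of all genes tested reached. Without ΔIEC3, the 2 members Lmod1 and Synpo2 had unadjusted limma p-values of 0.0436 and 0.0376, and 2322 of the 13379 genes in that fit were under 0.05. No member had its 3 libraries of one genotype apart from the 3 of the other, against 27.6% of all genes tested. The members' median log2 fold change was −0.23, with 9 below 0 and 1 above, beside 0.16 over all genes tested. Single libraries turned this direction: the median was 0.16 without WT1, with 8 members above 0, and 0.20 without ΔIEC2, with 9 above 0, but −0.70 without ΔIEC3, with 0 above 0.

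The precision of the comparison was low for these genes. The 95% interval of the log2 fold change ran from −1.30 to 0.86 for Acta2, from −1.74 to 0.92 for Myh11 and from −1.31 to 1.55 for Actg2. The narrowest was that of Smtn, −0.74 to 0.63. With 3 libraries against 3, differences between genotypes inside these intervals were not resolved, in either direction.

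**Figure D2:**
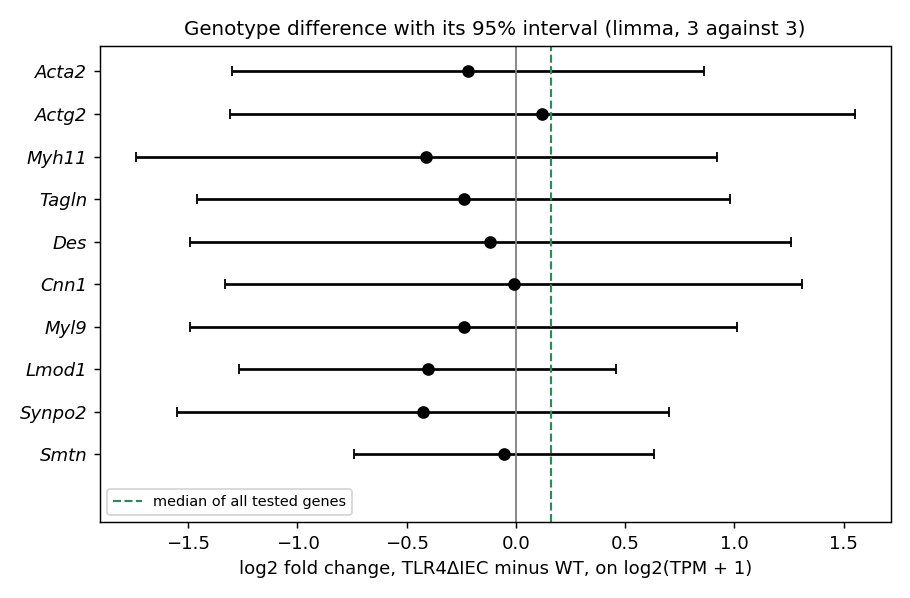
Points give the log2 fold change of each member (horizontal axis, TLR4ΔIEC minus WT on log2(TPM + 1)) and bars its 95% interval from limma with 3 libraries against 3. Every interval spans 0, and 9 of the 10 points lie below 0, while the dashed line at 0.16 marks the median of all genes tested.

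The spread was between mice of the same genotype label. On the log2(TPM + 1) scale the SD within a genotype was 0.43 for Smtn to 0.97 for Actg2, with a median of 0.83 over the members, beside 0.26 over all genes tested. The members' SDs were larger than those of 79.3% to 96.0% of the genes tested. In the WT libraries alone the highest level was 1.82 to 3.55 times the lowest, and in the libraries labelled TLR4ΔIEC 1.84 to 5.90 times.

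The direction of that spread was shared by all members. ΔIEC2 was the lowest of the 6 libraries for all 10 genes, as it was for 31.3% of all genes tested. WT1 and ΔIEC3 were the 2 highest for all 10, as for 5.72% of all genes tested. Of these, WT1 was the higher for Acta2, Myh11, Tagln, Lmod1 and Smtn, and ΔIEC3 for Actg2, Des, Cnn1, Myl9 and Synpo2.

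Summed over the 10 members, the level was 957, 418 and 376 TPM in WT1 to WT3 and 456, 254 and 923 TPM in ΔIEC1 to ΔIEC3. WT averaged 584 ± 324 and TLR4ΔIEC 544 ± 343 TPM (SD, n = 3 each), and TLR4ΔIEC over WT was 0.932. Without WT1 this ratio was 1.37, without ΔIEC2 it was 1.18 and without ΔIEC3 it was 0.608, so its side of 1 changed with single libraries. In tissue RNA, fewer muscle cells and less of these transcripts in each cell cannot be told apart.

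WT1 had the highest sum, ΔIEC3 the second and ΔIEC2 the lowest as deposited and under the 3 other scalings for which the sum was computed. Relative to WT2, the sum was 2.29 in WT1, 0.607 in ΔIEC2 and 2.21 in ΔIEC3 as deposited. With median-of-ratios scaling it was 2.29, 0.592 and 1.84. After rescaling without alpha-defensin, mitochondrial and 18S-like genes (Rn18s, Cmss1 and Gphn) it was 2.34, 0.470 and 1.77. In ΔIEC2 a lower number of detected genes and a higher Rn18s went along with low muscle genes. Among the other libraries Rn18s was highest in ΔIEC3 and WT1, at 7032 and 6852 TPM, where the muscle genes were highest. The part of detection and of Rn18s in the result was not tested.

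Ratios between members of 1 library do not depend on how that library was scaled, so each member was divided by Myh11. The ratio varied less between libraries than the gene's own level for all members but Smtn. Across libraries it ranged 1.31-fold for Tagln, 1.38-fold for Myl9 and 1.59-fold for Acta2, and at most 2.86-fold, for Smtn. Tagln over Myh11 was 2.36, 2.51 and 2.66 in WT1 to WT3 and 2.89, 3.08 and 2.61 in ΔIEC1 to ΔIEC3. ΔIEC2 and ΔIEC3, whose Tagln levels were 38.3 and 147 TPM, thus stood at 3.08 and 2.61 in this ratio.

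For 2 of 9 members, Actg2 and Cnn1, the ratio to Myh11 was higher in each library labelled TLR4ΔIEC than in each WT library. When divided by Myh11 in the same way, 4.38% of genes had the genotypes apart in either direction, beside 27.6% undivided. A gene that does not vary with Myh11 takes on the spread of Myh11 when divided by it. The 4.38% is therefore not a like background for members that vary with Myh11, and no excess is read from it. Actg2 over Myh11 was 2.58, 1.96 and 1.89 in WT1 to WT3 and 2.67, 3.66 and 3.09 in ΔIEC1 to ΔIEC3 (2.14 ± 0.384 and 3.14 ± 0.494, SD, n = 3 each). The lowest of the latter, 2.67, was close to the highest WT value, 2.58. Cnn1 over Myh11 was 0.843, 0.879 and 0.802 in the WT libraries and 0.953, 1.25 and 1.19 in ΔIEC1 to ΔIEC3 (0.841 ± 0.0389 and 1.13 ± 0.158, SD, n = 3 each). Both ratios share the same denominator. With each library left out in turn, TLR4ΔIEC over WT was 1.35 to 1.63 for Actg2 and 1.27 to 1.45 for Cnn1. Because the genotypes lay apart, TLR4ΔIEC had to stay above WT whichever library was left out, so this was no test of the direction. With 3 against 3, no exact permutation p can be below 0.10.

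The other 7 ratios overlapped between the genotypes. Smtn over Myh11 was 0.273, 0.407 and 0.388 in the WT libraries and 0.375, 0.780 and 0.319 in ΔIEC1 to ΔIEC3, highest in the library where Myh11 was lowest. The balance of the actins, Actg2 over Acta2, was 0.871, 0.638 and 0.585 in WT1 to WT3 and 0.738, 0.821 and 1.101 in ΔIEC1 to ΔIEC3 (0.698 ± 0.152 and 0.887 ± 0.190, SD, n = 3 each). It was highest in ΔIEC3, and the genotypes overlapped.

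**Figure D3:**
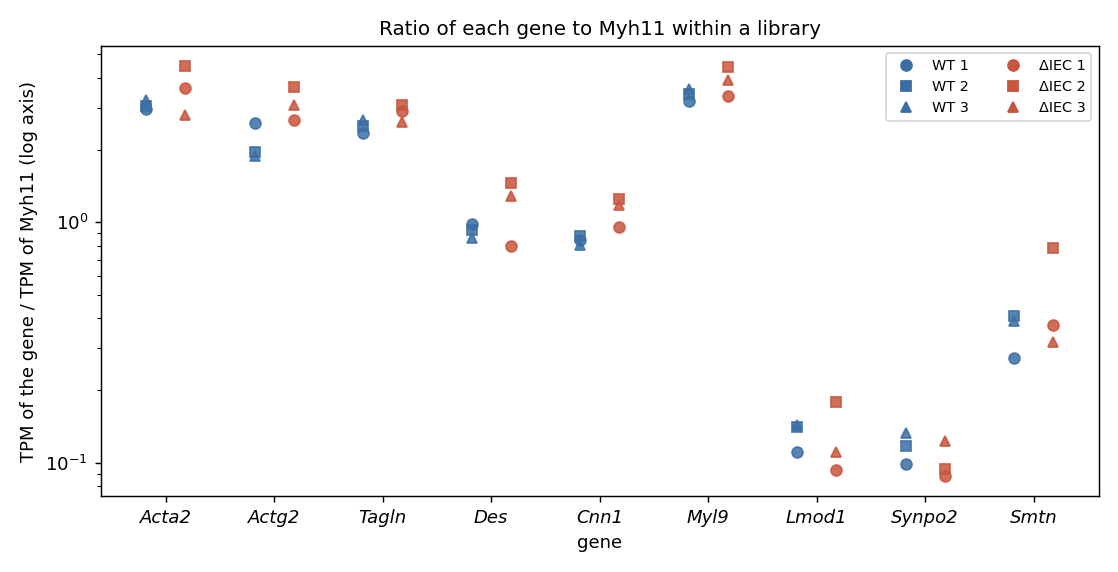
Each point is the TPM of a gene divided by the TPM of Myh11 in the same library (vertical axis, logarithmic), with WT libraries in blue and TLR4ΔIEC libraries in red and a marker for each replicate. The genotypes are apart for Actg2 and Cnn1 and overlap for the other 7 genes.

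The proteins that work with these members were followed as a list of 18 contractile partners, all tested. None passed the adjusted p of 0.05 (limma), 2 had an unadjusted p under 0.05 (Myl6 and Ldb3, the latter named after its values were seen), and the median log2 fold change was −0.06 (9 below 0 and 9 above), beside 0.16 over all genes. Myl6, the essential light chain found also in non-muscle cells, stood at 1374, 1420 and 1345 TPM in WT1 to WT3, then at 1707, 2030 and 2205 TPM in ΔIEC1 to ΔIEC3 (log2 fold change 0.51, limma adjusted p = 0.181). Tpm1, a tropomyosin made in many cell types, ranged from 235 to 366 TPM. In ΔIEC2, where every member was lowest, Myl6 was above all 3 WT libraries and Tpm1, at 263 TPM, lay within their range.

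Tpm2 followed the members more closely. This tropomyosin stood at 180, 73.9 and 71.1 TPM in WT1 to WT3, then at 72.4, 50.5 and 191 TPM in ΔIEC1 to ΔIEC3 (log2 fold change −0.14, limma adjusted p = 0.904). Csrp1, a LIM protein of the actin cytoskeleton, stood at 130, 76.5 and 65.04 TPM and at 78.4, 44.9 and 99.4 TPM in the same order. Of the 18 partners, 10 were lowest in ΔIEC2 and 10 had WT1 and ΔIEC3 as the 2 highest, beside 31.3% and 5.72% of all genes tested.

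Genes that control contraction were less uniform. Of 22 listed, 14 passed the filter and none passed the adjusted p of 0.05 or an unadjusted p under 0.05 (limma). Their median log2 fold change was −0.10, with 8 below 0 and 6 above. Rhoa, the GTPase that raises calcium sensitivity, stood at 173, 170 and 154 TPM in WT1 to WT3, then at 198, 210 and 193 TPM in ΔIEC1 to ΔIEC3 (log2 fold change 0.28, limma adjusted p = 0.270). Atp2a2, the calcium pump of the reticulum, ranged from 68.9 to 99.75 TPM, and the myosin phosphatase subunit Ppp1r12a from 17.4 to 33.8 TPM. Pde5a, which degrades cyclic GMP, ranged from 16.2 to 22.4 TPM. Of the 14, 9 were lowest in ΔIEC2, beside 31.3% of all genes tested. WT1 and ΔIEC3 were the 2 highest libraries for 4 of the 14, beside 5.72% of all genes tested. These 4 were Ppp1r12b, Ppp1r14a, Atp2b4 and Pln, named after their values were seen. The muscarinic receptors Chrm2 and Chrm3, which receive the acetylcholine signal, were below the filter.

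The transcription factors of gut muscle were followed as a list of 8, of which 6 were tested. None of the 6 had the members' pattern. The 3 factors Nkx2-3, Foxf1 and Foxf2 (the last named after its values were seen) were lowest in ΔIEC2, as were 31.3% of all genes tested. For 1, Mrtfa, WT1 and ΔIEC3 were the 2 highest, but it was lowest in WT3. Srf stood at 26.8, 22.1 and 24.1 TPM in WT1 to WT3, then at 25.9, 31.1 and 30.4 TPM in ΔIEC1 to ΔIEC3 (log2 fold change 0.25, limma adjusted p = 0.362). It was thus highest in ΔIEC2, where all 10 members were lowest, and nearly as high in ΔIEC3. Which cells of the tissue its transcripts came from was not tested. Its coactivator Mrtfa ranged from 6.76 to 9.36 TPM, and the mesenchymal factors Nkx2-3 and Foxf1 from 6.44 to 17.1 and from 3.85 to 9.42 TPM. Myocd, the muscle-specific coactivator myocardin, was below the filter at 0.36 to 1.53 TPM, and Barx1 was listed at 0 in every library. Of the 6 factors tested none passed the adjusted p of 0.05 or an unadjusted p under 0.05 (limma), with a median log2 fold change of −0.12.

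Other cell types of the gut wall were followed through marker lists in the same libraries. Interstitial cells of Cajal, the pacemaker cells that lie between the muscle layers, were represented by Kit, Ano1 and Etv1, which summed to 13.5, 7.89 and 10.2 TPM in WT1 to WT3 and 10.9, 4.96 and 12.4 TPM in ΔIEC1 to ΔIEC3. Kit stood at 8.03, 4.70 and 5.67 TPM and at 6.56, 3.36 and 7.12 TPM in that order. Markers of enteric neurons and glia, which form the plexus within the muscle, summed to 15.4, 8.83 and 8.37 TPM and to 7.41, 6.48 and 13.6 TPM, with Uchl1, a neuronal enzyme, at 10.5 TPM in WT1 and 7.33 TPM in ΔIEC3. Genes of pericytes, the mural cells of small vessels, among them Rgs5 and Pdgfrb, summed to 37.5, 29.7 and 30.3 TPM and to 27.4, 13.6 and 46.8 TPM. For the sums of all 3 lists WT1 and ΔIEC3 were the 2 highest libraries and ΔIEC2 the lowest, as for the muscle genes. Single genes differed. Of the 6 pericyte genes 3 were lowest in ΔIEC2, beside 31.3% of all genes tested. WT1 and ΔIEC3 were the 2 highest for 3, beside 5.72%. Rgs5 was higher in WT3 (20.03 TPM) than in WT1 (19.2 TPM), and Pdgfrb was highest in ΔIEC1 (6.75 TPM). Of the 2 neural genes tested Uchl1 was lowest in ΔIEC2. Ret was lowest in WT3, at 1.44 TPM, and at 2.42, 2.05 and 3.02 TPM in ΔIEC1 to ΔIEC3. The part of these cell types in the members' spread was not tested.

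Markers of fibroblasts and endothelium had other orders. The 7 fibroblast genes, among them Dcn, Col3a1, Col1a2 and Dpt, summed to 237, 177 and 148 TPM in the WT libraries and to 267, 52.4 and 146 TPM in ΔIEC1 to ΔIEC3. They were thus lowest in ΔIEC2 like the muscle genes but highest in ΔIEC1, and ΔIEC3 was below all 3 WT libraries. Endothelial genes, among them Pecam1 and Vwf, summed to 42.1, 35.3 and 28.9 TPM and to 34.3, 19.9 and 25.6 TPM.

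Relative to the fibroblast sum, the members stood at 4.04, 2.37 and 2.53 in WT1 to WT3 and at 1.71, 4.84 and 6.34 in ΔIEC1 to ΔIEC3. On this scale ΔIEC2 was no longer the lowest library. Relative to the endothelial sum they stood at 22.7, 11.9 and 13.02 in the WT libraries and at 13.3, 12.8 and 36.1 in ΔIEC1 to ΔIEC3, again with WT1 and ΔIEC3 as the 2 highest. None of the 7 fibroblast, 6 pericyte, 5 endothelial, 2 tested Cajal or 2 tested neural genes passed the adjusted p of 0.05 or an unadjusted p under 0.05 (limma), with median log2 fold changes of −0.35, −0.03, −0.48, −0.19 and −0.04.

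Among the libraries labelled TLR4ΔIEC the epithelial genes were highest where the muscle genes were lowest. Among the WT libraries the muscle genes and the epithelial sum were highest in WT1, but single epithelial genes differed. Cdh1, Krt8 and Krt19 were highest in WT1, Epcam in WT3, and Vil1 and Cdx2 in WT2. The epithelial sum was 7366, 6733 and 6430 TPM in WT1 to WT3 and 9375, 11901 and 8830 TPM in ΔIEC1 to ΔIEC3. Epcam, the pan-epithelial adhesion protein, stood at 1256, 1200.2 and 1260 TPM in WT1 to WT3, then at 1869, 2126 and 1928 TPM in ΔIEC1 to ΔIEC3 (log2 fold change 0.67, limma adjusted p = 0.112). Of the 6 epithelial genes all but Cdx2 had every library labelled TLR4ΔIEC above every WT library, where 27.6% of all genes tested had the genotypes apart in either direction. An unadjusted p under 0.05 was reached by 3 (beside 2847 of 13458 genes tested; they were Epcam, Krt19 and Cdh1, the last named after its values were seen), but none passed the adjusted p of 0.05 (limma), and their median log2 fold change was 0.55, beside 0.16 over all genes tested. As a percentage of the epithelial sum the members made up 12.99%, 6.21% and 5.85% in WT1 to WT3 and 4.86%, 2.13% and 10.4% in ΔIEC1 to ΔIEC3 (8.35% ± 4.02 and 5.82% ± 4.24, SD, n = 3 each), and the genotypes overlapped. Whether the share of epithelium in the tissue taken had a part in the spread of the muscle genes was not tested.

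Leukocyte genes (Ptprc, Cd52, Coro1a and Laptm5) summed to 101, 130 and 166 TPM in the WT libraries and to 185, 43.8 and 254 TPM in ΔIEC1 to ΔIEC3, lowest in ΔIEC2 and highest in ΔIEC3, while WT1 was the lowest of the WT libraries. Fat and mesothelial genes, led by Cidec, summed to 23.4 TPM in ΔIEC3 up to 70.4 TPM in ΔIEC2. Most of this sum was Cidec alone, at 20.1 TPM in ΔIEC3 and 68.7 TPM in ΔIEC2. Adipoq and Plin1 had another order, highest in WT1 at 3.88 and 1.47 TPM and at 1.44 and 0.21 TPM in ΔIEC2. The sum thus followed Cidec, and the amount of fat in the tissue was not tested. Genes of the exocrine pancreas, led by Cela1, summed to 6.76 to 14.9 TPM, with Cpa1 listed at 0 throughout. None of the 4 leukocyte, 2 fat or 1 pancreatic genes tested passed the adjusted p of 0.05 or an unadjusted p under 0.05 (limma), with median log2 fold changes of −0.04, 0.04 and 0.09.

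Genes of striated muscle were low, with Acta1 as the exception. This skeletal muscle actin stood at 31.7, 6.45 and 5.14 TPM in WT1 to WT3, then at 18.6, 59.3 and 84.0 TPM in ΔIEC1 to ΔIEC3 (14.4 ± 15.0 and 53.95 ± 33.0 TPM, SD, n = 3 each). Its log2 fold change came to 2.02 (SE 0.76, limma adjusted p = 0.193), and the genotypes overlapped. It was high in ΔIEC2, unlike Acta2 and Actg2. Of the 5 striated muscle genes tested none passed the adjusted p of 0.05 and 1, Acta1, had an unadjusted p under 0.05 (limma), with a median log2 fold change of 0.06. Mylpf, Ckm and Tnnt2 stayed between 0.35 and 6.08 TPM.

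**Figure D4:**
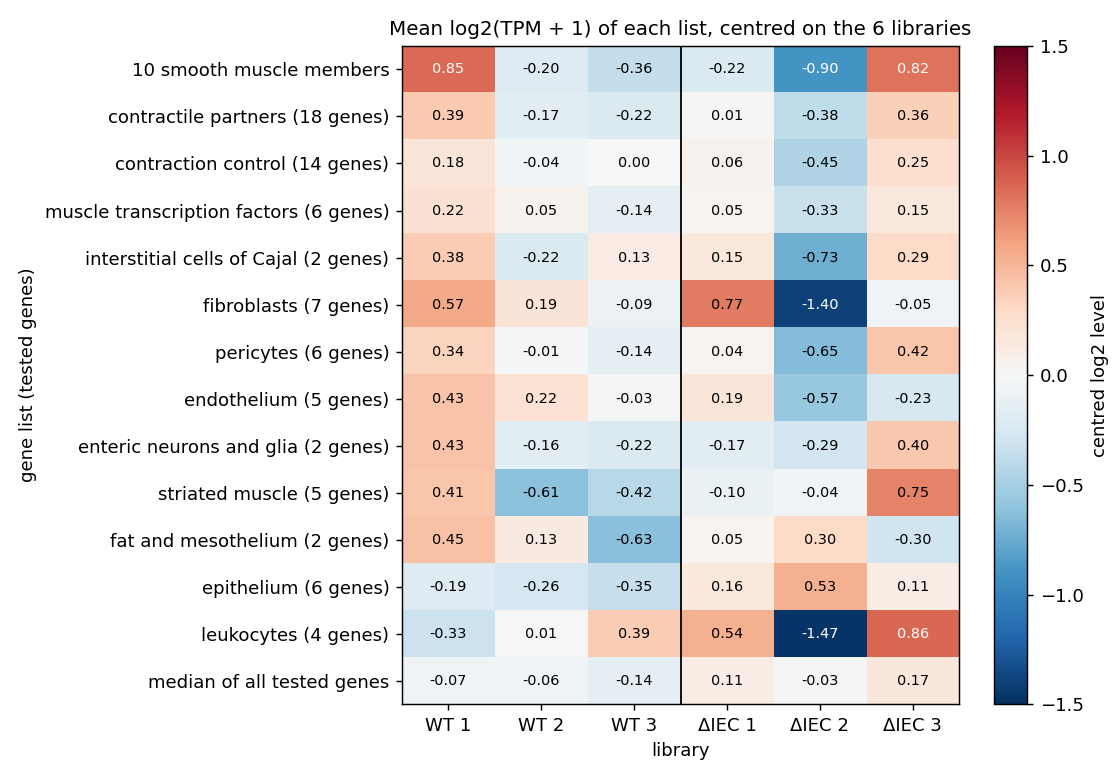
Each cell is the mean log2(TPM + 1) of the tested genes of a list (rows) in a library (columns), after subtracting each gene's mean over the 6 libraries, with red above and blue below that mean. The top row, the smooth muscle members, reads 0.85 in WT1, 0.82 in ΔIEC3 and −0.90 in ΔIEC2, and the epithelial row is highest in ΔIEC2.

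The genes whose profile was most like the members were found among 8588 other genes whose mean reached 5 TPM, by the root mean square difference between their centred log2 levels and the members' mean over the 6 libraries. The closest was Pgm5, a protein of dense plaques and other adhesions, at 0.0814, where the median over all candidates was 0.678. It stood at 11.01, 5.20 and 4.66 TPM in WT1 to WT3, then at 4.41, 2.53 and 9.99 TPM in ΔIEC1 to ΔIEC3. It lay about as close to the mean profile as Myl9, the closest member at 0.0786, whereas Smtn was the farthest member at 0.308.

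After Pgm5 came Tpm2 at 0.123, Fxyd1, a regulator of the sodium pump, at 0.135, and Dmpk, a muscle kinase, at 0.135. Fxyd1 stood at 18.7, 10.3 and 10.2 TPM in WT1 to WT3, then at 11.3, 5.62 and 22.6 TPM in ΔIEC1 to ΔIEC3. Flna (filamin A, an actin cross-linker), Cpe, Dio1, Mustn1, Pdlim7, Ppp1r12b, Pcp4l1 and Rbpms followed, at 0.178 to 0.235. The 4 genes Pgm5, Tpm2, Flna and Pdlim7 are on the list of contractile partners, and Ppp1r12b, a myosin phosphatase subunit, on that of contraction control. None of the 12 passed the adjusted p of 0.05 between the genotypes (limma adjusted p from 0.641 to 0.995).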

How the data were processed

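RNA was extracted with TRIzol and DNase-treated and libraries were made by a standard Illumina procedure, per the labels' protocols. Reads were handled with fastp, HISAT and RSEM on GRCm38.p5, per the submitters' processing notes, which give no tool version. The table of TPM was deposited by the authors, per the file headers, with 1 column per library, and the titles of the samples give genotype and replicate. Read totals cannot be recovered from TPM, so no counting interval is given.

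Genes whose mean over the libraries reached 1 TPM entered the fit on log2(TPM + 1), a scale that understates changes of low genes, made with limma 3.58.1 in R 4.3.3 (eBayes with trend, two-sided), with genotype alone in the model and Benjamini-Hochberg adjustment over all genes tested. The fit was tested on simulated data. The replicate numbers name no shared animal, so the main fit used no block, and a replicate block was tried as an alternative. Ratios to Myh11 used genes above 0 in every library. The members and the 13 gene lists were chosen with earlier results of these data known. All members are given, and from each list up to 4 genes past the threshold, filled up with those of highest mean TPM, except where the text says otherwise. The lists are contractile partners, contraction control, muscle transcription factors, interstitial cells of Cajal, fibroblasts, pericytes, endothelium, enteric neurons and glia, striated muscle, fat and mesothelium, exocrine pancreas, epithelium and leukocytes. The 12 genes most like the members are those with the smallest root mean square difference. Positions and coding sequences are from GENCODE M21 (GRCm38), promoters from RefSeq (GRCm38.p6). Alternatives tried were a pseudocount of 0.1 or of 5 TPM, a filter at 5 TPM or none, 4 other scalings, other limma settings, a replicate block and each library left out.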

Additional observations from a re-analysis of the deposited data

How the results depend on the processing

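No member passed the adjusted p of 0.05 (limma) under any of 18 alternatives, and the smallest adjusted p was 0.261. The number of genes called in all, 16, was 0 with no filter (3377 at an unadjusted p under 0.05), 7 with the filter at 5 TPM, 10 after rescaling without alpha-defensin, mitochondrial and 18S-like genes, and 136 with array weights. With the replicate block it was 1, and 0 members were called. Same-numbered libraries correlated at −0.04 to 0.12 in their deviations, and not every library correlated best with its own number. With each library left out in turn the count ran from 0 to 367 (at an unadjusted p under 0.05, 1681 without WT2 and 2651 without ΔIEC2).

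Of 178 member values under alternatives, 34 changed sign and 144 did not. Array weights gave log2 fold changes above 0 for Acta2 (0.22), Myh11 (0.14), Tagln (0.27), Des (0.45), Cnn1 (0.53), Myl9 (0.30), Synpo2 (0.06) and Smtn (0.18), and a pseudocount of 5 TPM gave 0.003 for Cnn1. Actg2 was below 0 with median-of-ratios scaling (−0.075), quantile normalization (−0.17) and TPM rescaled without the 20 highest genes (−0.05) or without alpha-defensin, mitochondrial and 18S-like genes (−0.199). Under these 4 scalings the members' median was −0.43, −0.44, −0.40 and −0.55, beside −0.01, 0.02, 0.01 and −0.12 over all genes. Array weights gave a members' median of 0.24, and leaving out each library −0.70 to 0.20. With each library left out in turn, the range was −0.57 to 0.18 for Acta2, −0.39 to 0.69 for Actg2, −0.92 to 0.13 for Myh11, −0.69 to 0.26 for Tagln, −0.71 to 0.35 for Des, −0.56 to 0.46 for Cnn1, −0.76 to 0.22 for Myl9, −0.93 to 0.004 for Synpo2 and −0.31 to 0.17 for Smtn. Lmod1 stayed below 0, at −0.76 to −0.15. The cause was not tested.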
